A study of Mus musculus with 8 samples.

Results

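The insulin-like growth factor (IGF) system was examined in RNA-seq of mouse prostate through 10 genes, found by symbol among the 27036 genes of the count table: the ligands *Igf1* and *Igf2*, the receptors *Igf1r* and *Igf2r*, the adaptors *Irs1* and *Irs2*, and the binding proteins *Igfbp2*, *Igfbp3*, *Igfbp4* and *Igfbp5*. The 8 libraries fall into 3 groups: WT prostate without disease (n = 3), prostatic intraepithelial neoplasia (PIN, n = 3), a lesion of atypical epithelium inside the glands, and prostatic adenocarcinoma (PCa, n = 2). PIN and PCa came from mice labelled hARtg-Osr1Cre, in which Cre recombinase made under the *Osr1* promoter switches on the transgene named hARtg at the *Rosa26* locus, and the study describes the controls as sex- and age-matched R26mTmG/+:Osr1Cre/+ mice, which lack the transgene and share Cre and the mTmG reporter with the PIN and PCa mice. The Cre acts throughout the *Osr1* lineage, so that the transgene is not limited to 1 epithelial cell type, and the PIN and PCa samples were tissue pieces picked under the microscope for their content of atypical or tumor cells. The labels give neither an age in weeks nor a treatment for these animals, nor do they say which libraries came from separate animals, so that p-values measure the spread between these samples.

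IGF1 and IGF2 are secreted ligands. Both activate the tyrosine kinase IGF1R, which recruits the IRS adaptors and through them the PI3K-AKT and RAS-MAPK cascades, whereas IGF2R carries IGF2 to lysosomes for breakdown. The IGF binding proteins hold the ligands in extracellular fluid and can limit or prolong their access to the receptor. In the prostate, *Igf1* is made mainly by stromal cells and IGF1R is found on the epithelium.

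Library totals were 21751803 to 29730420 counts, so that the members had from 23 to 17279 counts per library, and all 10 passed the filter for testing. The gene *9530053A07Rik* alone held 13.1% to 22.1% of the counts in WT and PIN and 0.0114% and 0.00833% in PCa. The libraries were also unlike each other in tissue markers. WT 1 held 15663 CPM (counts per 1000000 counts of the library, after scaling) of 6 seminal vesicle genes and 102 CPM of 4 adipocyte genes, against 0.634 and 0.769, and 0 and 1.5, in WT 2 and WT 3. PCa 1 and PCa 2 held 3840 and 883 CPM of the seminal vesicle genes and PIN 43.9 to 88.7. The summed 8 luminal epithelial genes came to 11170 to 32705 CPM in WT, 13932 to 18938 in PIN and 3501 and 3114 in PCa and none of the 8 was at 0 in any library. *Pbsn*, the probasin gene of luminal cells, was called lower in PCa against WT (log2 fold change -8.70, adjusted p = 0.0123). The 6 smooth muscle genes came to 1936.5 to 4685.8 CPM in WT, 3068.7 to 5488 in PIN and 41.8 and 18.1 in PCa. All 6 were called lower in PCa against WT, where 4.18% of all tested genes were. *Lmod1* (0.274 and 0.611 CPM in PCa) and *Cnn1* (0.617 and 2.16 CPM in PCa) passed the filter on low counts only with WT and PIN. The calls of both are therefore given as a description. The 6 proliferation genes came to 76.3 to 90.9 CPM in WT, 75.3 to 134 in PIN and 472 and 569 in PCa. In PCa against WT 5 of 6 were called higher, where 4.35% of all tested genes were. Of the other marker lists in that comparison, 1 of 8 luminal and 1 of 5 endothelial genes were called lower. No fibroblast, basal epithelial or other marker gene was called. In bulk tissue, fewer cells of a type and less RNA per cell cannot be told apart.

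PIN and PCa libraries carry neighbouring numbers in the labels, while WT 1 on one side and WT 2 and WT 3 on the other carry numbers of their own series. Number series and genotype therefore cannot be told apart in a comparison with WT, whereas PCa and PIN shared one. The study reports that PCa lesions started at a later age than high-grade PIN, and the labels give no ages. Lesion stage and animal age therefore cannot be told apart in PCa against PIN. The comparisons share libraries with one another (WT stands in 2 of them, PIN in 2 and PCa in 2), and each is given by its own values.

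Of the 10 members, *Igf1r* alone was called, and in PCa against WT. A call needed a log2 fold change beyond 1 or -1 together with a Benjamini-Hochberg adjusted p under 0.05 from edgeR's quasi-likelihood test over all 14034 tested genes. Of these, 8.54% were called in PCa against WT, 4.35% as higher and 4.18% as lower. No member was called in PIN against WT, where 0% of genes were, or in PCa against PIN, where 5.72% were (2.55% higher and 3.17% lower). At an unadjusted p under 0.05, the counts of members were 0 of 10 in PIN against WT, 4 of 10 in PCa against WT and 2 of 10 in PCa against PIN, where 3.51%, 27.5% and 22.8% of all tested genes lay. With DESeq2 the members called numbered 0, 3 and 1 in that order of comparisons, and with limma-trend 0, 2 and 1. The median log2 fold change of the members was 0.30, 0.28 and 0.22, against -0.017, 0.013 and 0.072 for all tested genes.

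**Figure D1:**
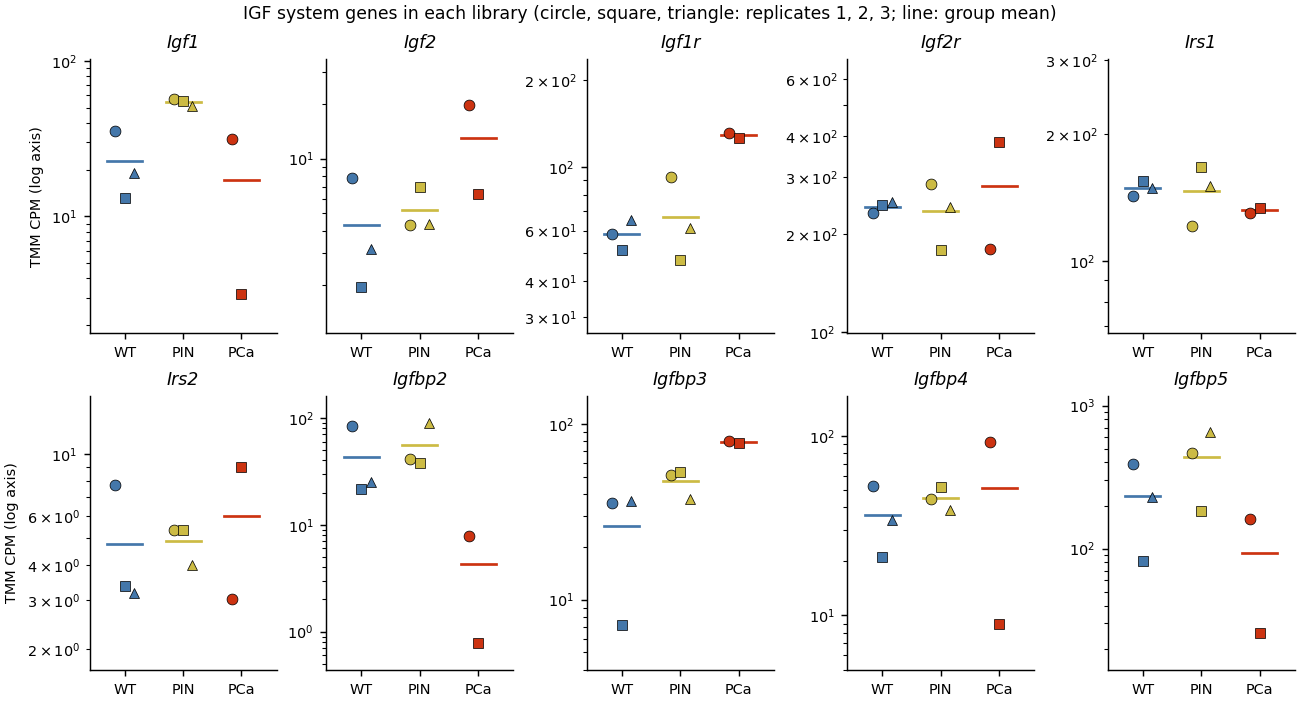
TMM-scaled CPM (log axis, a separate scale for each gene) of the 10 IGF genes in each library, with circles, squares and triangles for replicates 1, 2 and 3 and a line for the group mean. *Igf1r* at 131 and 125 CPM and *Igfbp3* at 80.5 and 78.0 CPM lie close together in the 2 PCa libraries, while *Igf1*, *Igfbp2*, *Igfbp4* and *Igfbp5* lie far apart there.

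*Igf1r*, the receptor through which both ligands signal, lies on chromosome 7 from 75097713 to 75371484 (mm9, plus strand) and overlaps no other gene of the annotation. Its levels were 58.5, 51.2 and 65.2 CPM in WT, 92.0, 47.5 and 61.4 CPM in PIN, and 131 and 125 CPM in PCa. Both PCa libraries thus lay above each of the other 6, and PIN overlapped WT. *Igf1r* rose in PCa against WT by 1.14 on the log2 scale (standard error 0.28, 95% confidence interval 0.48 to 1.8, adjusted p = 0.0478), from a mean of 58.3 ± 6.97 CPM (SD, n = 3) to 128.4 ± 4.31 CPM (SD, n = 2). Against PIN the log2 fold change was 0.94 (standard error 0.28, 95% confidence interval 0.28 to 1.60, adjusted p = 0.0972), and between PIN and WT it was 0.20 (standard error 0.26, adjusted p = 1). The size held while the call did not: over 9 other normalizations, filters, tools and models the log2 fold change against WT was 1.11 to 1.17 and the call was kept in 4, with adjusted p from 0.00453 (DESeq2) to 0.107 (a model of WT and PCa only). With upper-quartile normalization, the other scaling used in the study's methods, the adjusted p was 0.0503, so that *Igf1r* was not called under both scalings, as the study's methods ask. Leaving out single libraries gave 1.05 to 1.23, and the call was lost without any 1 of WT 1, WT 2, WT 3, PIN 2, PIN 3, PCa 1 or PCa 2 (adjusted p from 0.0508 without PIN 2 to 0.109 without WT 3) and kept without PIN 1 (adjusted p = 0.0432). The proliferation, smooth muscle and luminal epithelial sums separated the same 2 PCa libraries from the other 6, and their part in the *Igf1r* level was not tested.

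The 250 bases before a RefSeq transcript start are shown for *Igf1r* and *Igfbp3*, the 2 members above WT and PIN in both PCa libraries, and for *Igfbp2*, the member below them, so that the composition of the 3 promoters can be compared. They were taken from RefSeq's table on GRCm38.p6, and each matched mm9 exactly and once. Capitals mark the GC box GGGCGG, the core site of SP1-family factors, and AGAACA, the reverse complement of TGTTCT, the half-site of the glucocorticoid receptor and its close relatives. The 4 sequences lie at chr7:75096893-75097142 (plus strand), chr11:7113927-7114176 (minus strand), chr1:72870804-72871053 and chr1:72871711-72871960 (both plus strand).

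Igf1r: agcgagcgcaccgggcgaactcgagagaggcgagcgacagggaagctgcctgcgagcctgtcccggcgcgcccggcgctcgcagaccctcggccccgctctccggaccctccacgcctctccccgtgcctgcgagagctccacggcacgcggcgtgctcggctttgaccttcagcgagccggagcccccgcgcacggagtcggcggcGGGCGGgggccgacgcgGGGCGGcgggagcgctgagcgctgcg

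Igfbp3: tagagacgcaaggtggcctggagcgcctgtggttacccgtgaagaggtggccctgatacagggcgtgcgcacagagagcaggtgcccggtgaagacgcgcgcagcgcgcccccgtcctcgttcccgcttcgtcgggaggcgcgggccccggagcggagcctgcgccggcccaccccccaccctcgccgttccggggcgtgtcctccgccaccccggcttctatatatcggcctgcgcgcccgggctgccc

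Igfbp2, first start: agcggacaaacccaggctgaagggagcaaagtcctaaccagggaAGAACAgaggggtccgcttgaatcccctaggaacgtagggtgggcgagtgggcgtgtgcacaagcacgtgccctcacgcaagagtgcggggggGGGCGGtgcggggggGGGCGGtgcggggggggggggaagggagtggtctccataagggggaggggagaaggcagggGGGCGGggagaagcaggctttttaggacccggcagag

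Igfbp2, second start: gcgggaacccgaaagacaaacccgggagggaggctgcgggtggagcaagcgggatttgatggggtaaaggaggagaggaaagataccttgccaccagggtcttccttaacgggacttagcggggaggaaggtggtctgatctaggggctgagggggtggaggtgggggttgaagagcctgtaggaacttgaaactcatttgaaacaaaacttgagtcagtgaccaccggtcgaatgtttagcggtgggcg

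The *Igf1r* promoter had 77.6% G and C, above 97.6% of 32851 mouse promoters, whose median was 52.4%. It held 2 GC boxes, 43 and 26 bases before the start, and neither the half-site nor TATAAA on either strand. *Igfbp3* had 73.2% G and C and none of the 3 motifs. The first *Igfbp2* promoter held 3 GC boxes and 1 half-site, 206 bases before the start, and the second held no motif. Of all promoters of this length, 32.7% held a GC box, 16.1% the half-site and 12.4% TATAAA, on either strand. Over the 14 promoters of the 10 members, the half-site was found in 1 of *Igf2* and 1 of *Igfbp2*, and TATAAA in that of *Igfbp4*, 28 bases before the start.

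*Igf1*, the ligand whose main source outside the liver is connective tissue, had 35.6, 13.1 and 19.1 CPM in WT, 57.1, 54.9 and 51.1 CPM in PIN, and 31.2 and 3.19 CPM in PCa. The PIN libraries lay close together above all WT and PCa libraries, while the PCa libraries differed from each other by more than WT did. In PIN against WT the log2 fold change was 1.27 (standard error 0.72, 95% confidence interval -0.42 to 2.95, adjusted p = 1), although the groups did not overlap, as was so for 12.9% of tested genes in either direction. In PCa against PIN it was -1.66 (standard error 0.85, adjusted p = 0.293) and against WT -0.39 (standard error 0.81, adjusted p = 0.792). These values depended on both PCa libraries. Without PCa 1, the log2 fold change of *Igf1* was -2.81 against WT and -4.07 against PIN, and without PCa 2 the values were 0.48 and -0.78. The direction against WT also turned without WT 1, to 0.10. Summed CPM of 7 fibroblast genes moved with *Igf1* within PCa, at 782 in PCa 1 and 282 in PCa 2, against 557 to 1059 in WT and 783 to 1017 in PIN. Other marker sums were also higher in PCa 1 than in PCa 2. Basal epithelial genes came to 610 and 28.0 CPM, leukocyte genes to 142 and 18.2, adipocyte genes to 20.8 and 0.171 and seminal vesicle genes to 3840 and 883. The proliferation sum alone went the other way, at 472 and 569 CPM. The part of these sums in the *Igf1* levels was not tested.

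*Igf2*, the imprinted fetal growth factor, was the lowest member in WT and PIN by TPM (transcripts per 1000000), a level per length. It had 7.81, 1.95 and 3.18 CPM in WT, 4.32, 6.99 and 4.37 CPM in PIN, and 19.7 and 6.38 CPM in PCa. PCa 1 was the highest of the 8 libraries, while PCa 2 lay within the WT and PIN values. The log2 fold change was 1.60 in PCa against WT (standard error 0.68, 95% confidence interval 0.014 to 3.18, adjusted p = 0.178) and 1.32 against PIN (standard error 0.68, adjusted p = 0.297). Without PCa 1 these were 0.57 and 0.30, without PCa 2 they were 2.21 and 1.93, and without WT 1 the value against WT was 2.34, none of them called. *Igf1* exceeded *Igf2* in TPM by a factor of 2.52 to 3.71 in WT and 4.35 to 7.31 in PIN, and the ratio was 0.879 and 0.277 in the 2 PCa libraries. The antisense gene *Igf2as* overlaps *Igf2*, and *Gm16176* overlaps *Igf1* on the other strand. Whether counting used the strand is not given in the sources used here, so reads of those pairs cannot be told apart.

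*Igf2r*, the receptor that clears IGF2, had 232, 246 and 251 CPM in WT, 286, 178 and 242 CPM in PIN, and 180 and 383 CPM in PCa. The 2 PCa libraries lay on either side of all WT values, and the log2 fold change against WT was 0.21 (95% confidence interval -0.60 to 1.02, adjusted p = 0.736). Its antisense neighbour *Airn*, an imprinted noncoding RNA that overlaps it, had a log2 fold change of 0.96 in PCa against WT (adjusted p = 0.142). *Insr*, the insulin receptor and the closest relative of IGF1R, had 138 to 167 CPM in WT, 127 to 165 CPM in PIN, and 164 and 188 CPM in PCa, with a log2 fold change of 0.23 against WT (95% confidence interval -0.24 to 0.70, adjusted p = 0.500). The TPM ratio of *Igf1r* to *Insr* was 0.769 to 0.917 in WT, 0.682 to 1.21 in PIN, and 1.73 and 1.44 in PCa. That of *Igf2r* to *Igf1r* was 1.82 to 2.28 in WT and 1.47 to 1.87 in PIN, and 0.649 and 1.45 in PCa.

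*Irs1*, the main adaptor of IGF1R in many epithelia, had the smallest standard errors of the members. It had 142, 155 and 149 CPM in WT, 121, 168 and 150 CPM in PIN, and 130.2 and 134 CPM in PCa. In CPM both PCa libraries lay below WT and within the PIN values, whereas in TPM they had 54.3 and 57.9, against 42.2 to 55.4 in WT, so that the order of the group means turned. On the TMM scale it had a log2 fold change against WT of -0.17 (standard error 0.20, 95% confidence interval -0.64 to 0.29, adjusted p = 0.613), so that its interval left out a change of 2-fold in either direction. *Irs2*, the adaptor tied to insulin action in the liver and islets, had 7.76, 3.35 and 3.18 CPM in WT, 5.36, 5.34 and 3.99 CPM in PIN, and 3.02 and 9.02 CPM in PCa. The 2 PCa libraries were its lowest and its highest, and the log2 fold change against WT was 0.34 (standard error 0.59, adjusted p = 0.754). *Gm9747* overlaps *Irs1* and *9530052E02Rik* overlaps *Irs2* on the other strand, so that the same limit on strand holds for both adaptors.

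*Igfbp2*, a binding protein with a preference for IGF2, had 83.0, 21.5 and 25.3 CPM in WT, 41.0, 37.8 and 89.5 CPM in PIN, and 7.85 and 0.789 CPM in PCa. Both PCa libraries lay below all others, PCa 2 with 23 counts. The log2 fold change was -3.32 in PCa against WT (standard error 1.08, 95% confidence interval -5.83 to -0.81, adjusted p = 0.0964) and -3.69 against PIN (standard error 1.10, 95% confidence interval -6.26 to -1.14, adjusted p = 0.0952), so that neither passed the threshold. DESeq2 called *Igfbp2* lower in both comparisons (-3.30 with adjusted p = 0.00269, and -3.69 with adjusted p = 0.000747), as did limma-trend (-3.74 with adjusted p = 0.0475, and -4.28 with adjusted p = 0.0383). Without PCa 1 the quasi-likelihood test called it too, at -5.76 (adjusted p = 0.0194) against WT and -6.12 (adjusted p = 0.0181) against PIN. Without PCa 2 the values were -2.45 (adjusted p = 0.156) and -2.81 (adjusted p = 0.141), and without WT 1 the value against WT was -2.43 (adjusted p = 0.186), none of them called. The summed smooth muscle markers and the summed luminal epithelial markers were each also lower in both PCa libraries than in all others. The part of either tissue in *Igfbp2* was not tested.

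*Igfbp3*, the main carrier of IGFs in serum, had 35.6, 7.16 and 36.3 CPM in WT, 51.4, 53.4 and 37.3 CPM in PIN, and 80.5 and 78.0 CPM in PCa. In CPM the 3 groups did not overlap and were ordered from WT over PIN to PCa, whereas in TPM WT 3 (39.3) lay above PIN 3 (38.8). None of the steps passed the threshold, with log2 fold changes of 0.85 in PIN against WT (standard error 0.53, adjusted p = 1), 0.74 in PCa against PIN (standard error 0.58, adjusted p = 0.497) and 1.59 in PCa against WT (standard error 0.58, 95% confidence interval 0.23 to 2.94, adjusted p = 0.129). Leaving out 1 library gave 0.40 to 1.15 in PIN against WT. WT 2 held the lowest value. Without it the log2 fold change in PCa against WT was 1.14 and was called (adjusted p = 0.0344), and DESeq2 called the full comparison at 1.61 (adjusted p = 0.0455), unlike limma-trend at 1.91 (adjusted p = 0.107).

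*Igfbp4*, whose product mostly restrains IGF action, had 52.8, 21.2 and 34.1 CPM in WT, 44.7, 51.9 and 38.9 CPM in PIN, and 92.9 and 8.95 CPM in PCa. The highest and the lowest library were thus both PCa, and the log2 fold change against WT was 0.50 (standard error 0.79, 95% confidence interval -1.35 to 2.35, adjusted p = 0.730). It turned to -2.0 and was called without PCa 1 (adjusted p = 0.0412), and likewise against PIN, from 0.17 to -2.32 (adjusted p = 0.0292), while without PCa 2 the values were 1.38 and 1.06, neither called. Within PCa, each marker sum other than proliferation was higher in PCa 1 than in PCa 2. Among them, 5 basal epithelial genes came to 610 and 28.0 CPM and 6 leukocyte genes to 142 and 18.2 CPM. The part of these sums in the spread of *Igfbp4* was not tested. *Igfbp5*, a matrix-bound binding protein, had 392, 81.8 and 228 CPM in WT, 468, 182 and 651 CPM in PIN, and 161 and 25.5 CPM in PCa. PCa lay below PIN in both libraries but overlapped WT, with log2 fold changes of -2.22 against PIN (standard error 0.98, 95% confidence interval -4.49 to 0.054, adjusted p = 0.229) and -1.33 against WT (standard error 0.94, adjusted p = 0.402). These were -4.07 and -3.19 without PCa 1, -1.41 and -0.53 without PCa 2, and -0.73 against WT without WT 1, none of them called.

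**Figure D2:**
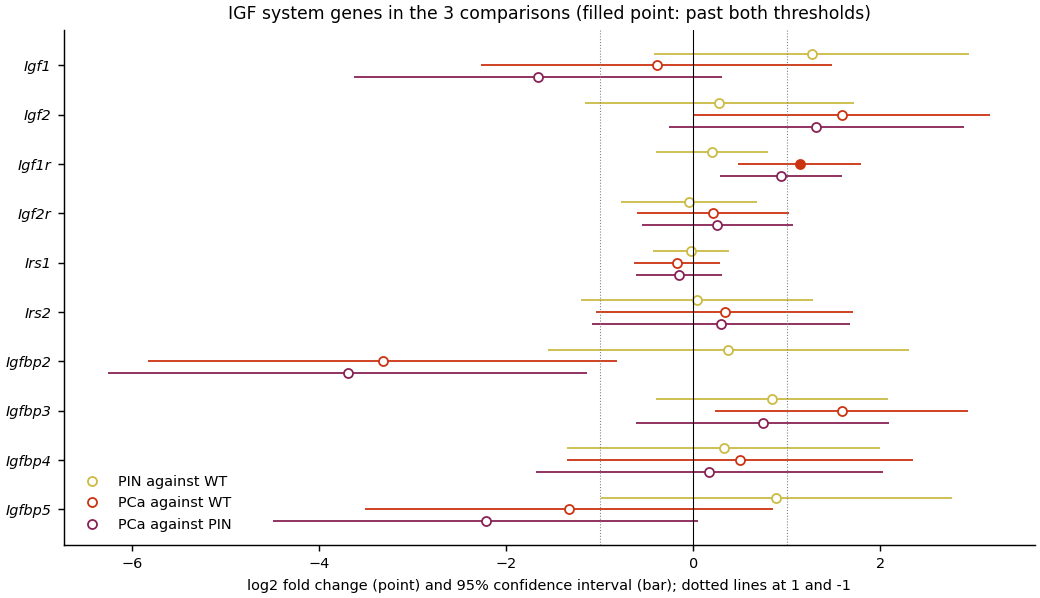
Log2 fold change (point) with its 95% confidence interval (bar) of the 10 IGF genes for each pair of groups (PIN and PCa set against WT, and PCa set against PIN), with dotted lines at 1 and -1. A filled point marks a gene past both thresholds, which holds for *Igf1r* in PCa against WT at 1.14, and the bars of *Igf2* and *Igfbp3* in PCa against WT, of *Igf1r* in PCa against PIN and of *Igfbp2* in both PCa comparisons also leave out 0.

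Counted by libraries that do not overlap in CPM, 2 members lay higher and none lower in PIN than in WT (*Igf1* and *Igfbp3*), where 6.48% and 6.38% of tested genes did so. In PCa against WT, 2 lay higher (*Igf1r* and *Igfbp3*) and 2 lower (*Irs1* and *Igfbp2*), against 17.7% and 19.6% of tested genes (37.3% in all). Set against PIN, PCa had *Igf1r* and *Igfbp3* higher and *Igf1*, *Igfbp2* and *Igfbp5* lower, against 21.1% and 23.2% (44.3% in all). In TPM, *Igfbp3* in PIN and *Irs1* in PCa overlapped WT, and *Igf2* lay higher in PCa than in either other group. With 10 members, 1 gene more or less moves such a share by 10 percentage points.

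By level per length, *Igfbp5* led in WT (123 ± 86.8 TPM) and PIN (242 ± 125 TPM), followed by *Igf2r* and *Igfbp2* in changing order. In WT, each gene overlapped its neighbour in the order except at the step from *Igfbp4* (12.0 to 38.0 TPM) to *Igf1* (3.28 to 11.4 TPM). In PIN the steps from *Igf2r* to *Irs1*, from *Igfbp4* to *Igf1* (16.7 to 19.8 TPM) and from *Igf1* to *Irs2* (3.23 to 4.64 TPM) were free of overlap. In PCa, *Igf2r* (117 ± 62.4 TPM), *Igf1r* (112 ± 0.671 TPM) and *Igfbp3* (98.4 ± 0.564 TPM) were the leading genes, and of all steps that from *Igf1r* to *Igfbp3* alone was free of overlap, with n = 2.

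Summed over *Igfbp2* to *Igfbp5*, the binding protein transcripts came to 424, 80.7 and 240.4 TPM in WT, 436, 279 and 578 TPM in PIN, and 297 and 125 TPM in PCa. Group means were 248.4 ± 171.9, 430.6 ± 149.5 and 211 ± 121 TPM, and each pair of groups overlapped. With the 10 most counted genes left out of the TPM, the means were 311.5, 531.6 and 225.7 TPM. On that scale PIN (350.5 to 725.6 TPM) no longer overlapped PCa (318.6 and 132.8 TPM). *Igfbp3* held 7.07% to 16.4% of the full TPM sum in WT, 6.72% to 21.4% in PIN, and 33.1% and 78.8% in the PCa libraries, whereas *Igfbp2* held 19.3% to 36.0% in WT, 17.5% to 27.3% in PIN, and 5.47% and 1.35% in PCa. *Igfbp5* held 34.4% and 13.5% in PCa, below its share in each WT and PIN library (38.1% to 61.5%). The *Igfbp4* share overlapped, at 27.1% and 6.41% in PCa and 4.96% to 14.9% in the other 6 libraries.

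**Figure D3:**
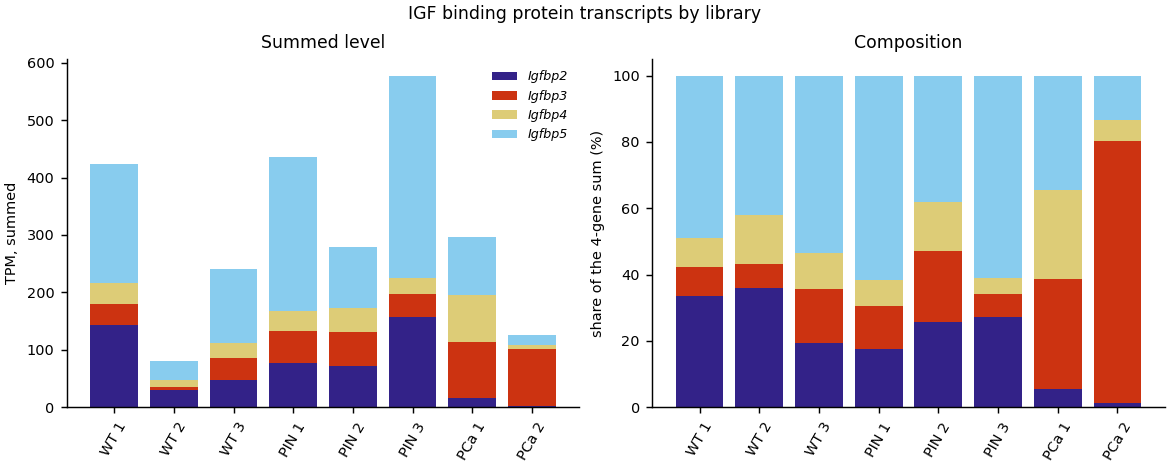
Summed TPM of 4 IGF binding protein genes in each library (left) and the share of each gene in that sum in percent (right). The *Igfbp3* share is 33.1% in PCa 1 and 78.8% in PCa 2 and at most 21.4% in the other 6 libraries.

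Other binding proteins showed a like split between the tumors. *Igfbp6*, which binds IGF2 in preference to IGF1, had 30.0, 29.0 and 22.9 CPM in WT, 12.5, 20.0 and 18.6 CPM in PIN, and 8.30 and 0.137 CPM in PCa, so that PCa lay below PIN and PIN below WT. Its log2 fold change in PCa against WT was -2.69 (standard error 1.20, adjusted p = 0.193), and it was called without PCa 1 (-7.58, adjusted p = 0.000903), without PCa 2 (-1.70, adjusted p = 0.0365) and by DESeq2 (-2.68, adjusted p = 0.0493). *Igfbp7*, which binds IGFs weakly and is high in vessels, had 17.2 to 67.5 CPM in WT, 47.3 to 72.7 CPM in PIN, and 94.1 and 36.0 CPM in PCa (log2 fold change 0.70 against WT, adjusted p = 0.484).

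Beyond the members, 89 genes of the pathway were followed in 9 lists, of which 78 were tested. In PCa against WT, 4 rose and 7 fell, 14.1% of those tested beside the 8.54% of all genes, and the median log2 fold change was -0.13. In PCa against PIN, 3 rose and 4 fell (8.97%, beside 5.72%), and in PIN against WT none passed the test. Both counts of rises include *H19*, which was tested because of its level in PCa, and the falls include *Irs4* and, against WT, *Peg10*, which were tested because of their levels in WT and PIN, so that nothing is read from these shares against the background. In edgeR's quasi-likelihood test with TMM scaling, none of the 13 genes of the RAS-MAPK list was called.

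Of the receptor adaptors tested other than *Irs4*, *Grb14* and *Grb10* fell in PCa against WT and 3 were not called, where 4.18% of all tested genes were called lower. *Irs4*, an IRS adaptor of restricted tissue range, had 109, 61 and 264 counts in WT, 314, 281 and 228 counts in PIN, and 0 and 1 count in PCa. It passed the filter on low counts through WT and PIN alone, so that its call is given as a description, with a ratio of WT to PCa of 376, whose 95% counting interval of 67 to 14900 covers counting error only. *Grb14*, an adaptor that inhibits the insulin receptor kinase, had 32.1, 34.4 and 30.8 CPM in WT, 46.7, 20.8 and 47.7 CPM in PIN, and 4.6 and 4.22 CPM in PCa. It fell by 2.88 on the log2 scale against WT (standard error 0.40, adjusted p = 0.01) and by 3.12 against PIN (standard error 0.41, adjusted p = 0.0122). *Grb10*, its imprinted relative and a restraint on both receptors, had 22.5, 45.1 and 22.4 CPM in WT, 18.1, 15.2 and 14.4 CPM in PIN, and 5.92 and 5.21 CPM in PCa, and fell by 2.43 against WT (adjusted p = 0.0138) and not past the threshold against PIN (-1.52, adjusted p = 0.0579). Against PIN *Grb10* was called with upper-quartile scaling (adjusted p = 0.0466), DESeq2 (adjusted p = 0.00294), limma-trend (adjusted p = 0.0445) and without WT 2 (adjusted p = 0.0193). The other alternatives did not call it. *Grb14* and *Grb10* were called against WT whichever single library was left out, while against PIN *Grb14* lost its call without PIN 3 (adjusted p = 0.0524). In a model of WT and PCa alone, *Grb14* was called, and *Grb10* (adjusted p = 0.0863) and *Irs4* (adjusted p = 0.0613) were not.

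*H19*, the noncoding RNA that shares an imprinting control region with *Igf2*, was among the pathway genes called higher in PCa. It had 8, 4 and 3 counts in WT and 12, 12 and 24 counts in PIN, against 5521 and 919 counts in PCa, or 178 and 31.5 CPM. It passed the filter on low counts through the PCa libraries alone, so that a difference from the other groups was built into its being tested. The log2 fold change was 8.85 against WT (standard error 0.94) and 7.48 against PIN (standard error 0.87), given as a description. The TPM ratio of *Igf2* to *H19* was 4.64 to 12.5 in WT and 2.09 to 7.31 in PIN, and 0.0479 and 0.0874 in PCa. *Igf2bp2*, which codes for a protein that binds *Igf2* mRNA, had 1.78 to 2.63 CPM in WT, 1.48 to 4.0 CPM in PIN, and 9.30 and 76.7 CPM in PCa, and rose by a log2 fold change of 4.28 against WT (adjusted p = 0.0240), which was 2.08 and not called without PCa 2 (adjusted p = 0.0645), and its call was also lost without WT 1, WT 2, WT 3 or PIN 3 (adjusted p up to 0.0884). Against PIN it rose by 4.01 (adjusted p = 0.0350), which was 1.82 and not called without PCa 2 (adjusted p = 0.105), and it kept that call without WT 2 or PCa 1 and no other single library. *Peg10*, an imprinted gene of retrotransposon origin, had 2.32 to 2.81 CPM in WT and 1.24 to 2.86 CPM in PIN, and 0.257 and 0.0343 CPM in PCa, which rest on 8 counts and 1 count. It too passed the filter through WT and PIN alone, and its log2 fold change of -4.10 against WT is given as a description. Its call was lost without any 1 of the WT or PIN libraries (adjusted p up to 0.0877) and in a model of WT and PCa alone (adjusted p = 0.122). That model also did not call *Igf2bp2* (adjusted p = 0.0938), and *Igf2bp2* against PIN was not called with limma-trend (adjusted p = 0.0519) or in a model of PIN and PCa alone (adjusted p = 0.0952).

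*Pik3ip1*, an inhibitor of PI3K and a FOXO target, fell by 1.99 (adjusted p = 0.0158), from 75.0, 41.4 and 51.2 CPM to 15.4 and 12.7 CPM. It also fell against PIN, by 2.15 (adjusted p = 0.0181), a call that was lost without any 1 PIN library (adjusted p up to 0.0652). FOXO factors are held out of the nucleus by AKT, and in their list *Foxo4* rose by a log2 fold change of 1.79 against WT (adjusted p = 0.0334), from 35.9 to 44.5 CPM to 79.6 and 190.5 CPM, and *Sesn1*, a stress-induced restraint on mTORC1, by 1.35 (adjusted p = 0.0217), from 17.2 to 21.1 CPM to 39.9 and 60.5 CPM. *Foxo4* was 1.04 and not called without PCa 2 (adjusted p = 0.0923), and its call was also lost without WT 1, WT 2, WT 3, PIN 2 or PIN 3 (adjusted p up to 0.110). *Sesn1* lost its call without WT 1, WT 3 or PIN 3 (adjusted p up to 0.0787), and *Pik3ip1* without WT 3 (adjusted p = 0.0503). Against PIN *Sesn1* rose by 1.07 (adjusted p = 0.0490), a call kept without WT 2 or PCa 1 and lost without any 1 of the other 6 libraries (adjusted p up to 0.186). *Adam9*, a protease that can cleave IGFBPs, fell by 1.04 against WT (adjusted p = 0.0465), from 201, 290 and 294 CPM to 131 and 123 CPM, and lost its call without any 1 of the 8 libraries other than WT 1 (adjusted p up to 0.126), with filterByExpr, without a filter and with DESeq2 size factors (adjusted p of 0.0513 to 0.0709). In a model of WT and PCa alone, *Pik3ip1* (adjusted p = 0.0764), *Foxo4* (adjusted p = 0.110), *Sesn1* (adjusted p = 0.110) and *Adam9* (adjusted p = 0.176) were not called. Against PIN, *Sesn1* was not called with filterByExpr (adjusted p = 0.0562), without a filter (adjusted p = 0.0795) or in a model of PIN and PCa alone (adjusted p = 0.0841).

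In the RAS-MAPK list, the log2 fold changes in PCa against WT were 0.45 for *Nras* (adjusted p = 0.394), a small GTPase, -1.04 for *Mapk3* (adjusted p = 0.0618) and -0.76 for *Map2k2* (adjusted p = 0.0941), the kinases ERK1 and MEK2. *Mapk3* had 226 to 266 CPM in WT, 193 to 220 CPM in PIN, and 83.2 and 152 CPM in PCa, without overlap between the groups. Its call depended on the setting: it was called lower with DESeq2 (adjusted p = 0.00626), limma-trend (adjusted p = 0.0397) and upper-quartile scaling (adjusted p = 0.0476), and at -1.53 without PCa 2 (adjusted p = 0.0165), while the other alternatives gave adjusted p up to 0.217.

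**Figure D4:**
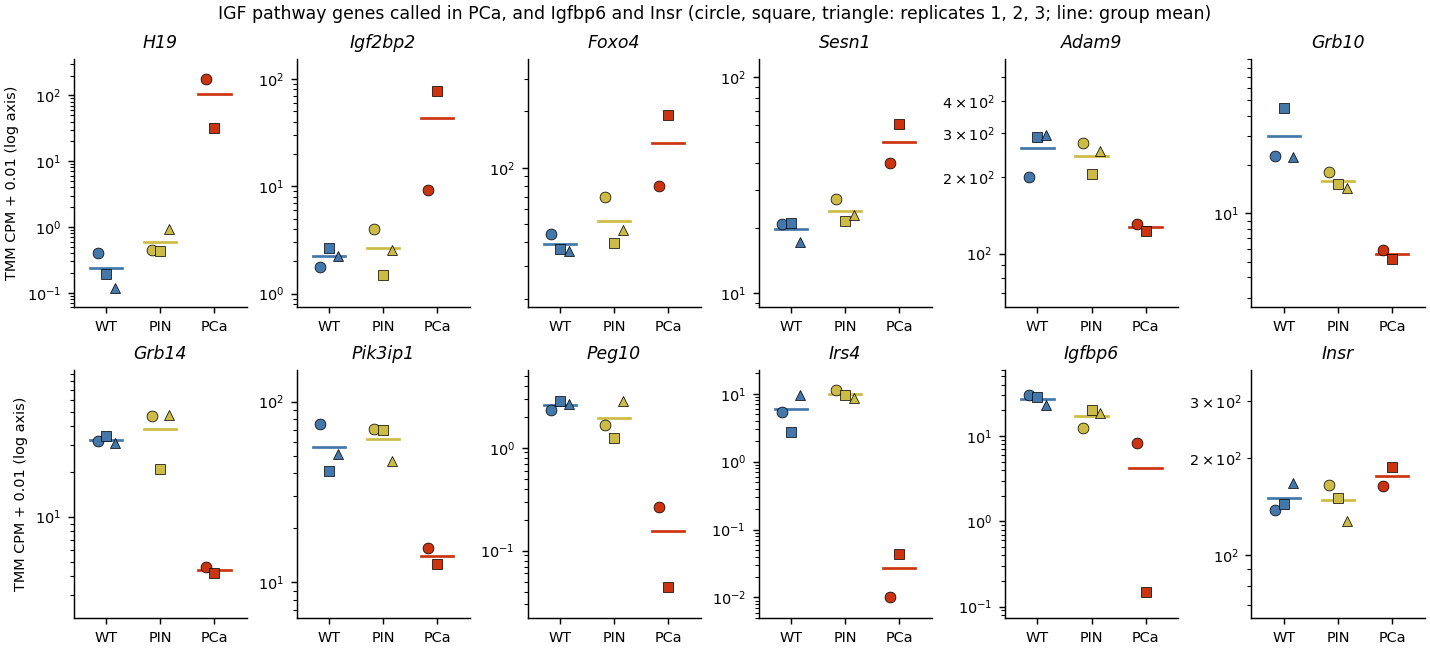
TMM-scaled CPM plus 0.01 (log axis, a separate scale for each gene) of 10 IGF pathway genes called in PCa against WT and of *Igfbp6* and *Insr*, by library, with symbols for replicates 1, 2 and 3 and a line for the group mean. Both PCa libraries lie outside the WT and PIN values for each of the 10 called genes and for *Igfbp6*, while for *Insr* PCa 1 (164 CPM) lies among the other libraries and PCa 2 (188 CPM) above them.

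The 3 tested genes whose levels over the 8 libraries were most like *Igf1r*, by Pearson correlation of log2(CPM + 1), were *9630033F20Rik* (r = 0.985), *Ppfia3* (r = 0.980) and *Pdlim1* (r = 0.979). The points share the contrast of 2 PCa libraries with 6 others, and like *Igf1r* each of the 3 was higher in PIN 1 than in the other PIN libraries. *Pdlim1* had 12.6, 8.79 and 12.7 CPM in WT, 30.2, 11.5 and 12.6 CPM in PIN, and 63.7 and 66.4 CPM in PCa. Among the members, the correlation was 0.898 between *Igfbp2* and *Igfbp5*, 0.895 between *Igf1* and *Igfbp5*, -0.847 between *Igf2r* and *Igfbp4* and -0.826 between *Igf1r* and *Irs1*, the 2 highest and the 2 lowest of 45 pairs over the same 8 libraries, picked after their values were seen.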

How the data were processed

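Total RNA from 8 mouse prostate tissues, depleted of ribosomal RNA, was sequenced as paired-end libraries on an Illumina HiSeq 2500. The authors trimmed the reads with cutadapt 1.9.1, aligned them to mm9 with HISAT2 2.1.0 and counted them per gene with HTSeq 0.6.1, so that the deposited counts are raw and not normalized. The strand setting of the counting is not given in the sources used here. The deposited table also holds a summed exon length per gene, another kind of value, which was used for TPM.

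The analysis ran in edgeR 4.0.16 (R 4.3.3). The tool, filter, TMM scaling and thresholds follow the study's methods, which name TPM as input and ask for concordance with upper-quartile scaling. Here raw counts were tested and calls rest on TMM: genes above 1 CPM in at least 2 libraries (14034 of 27036), trimmed mean of M-values (TMM) scaling, and the quasi-likelihood F-test in 1 model of 3 groups with 5 residual degrees of freedom. P-values were adjusted by Benjamini-Hochberg over all tested genes, and calls required an adjusted p under 0.05 together with a log2 fold change beyond 1 or -1. CPM values are TMM-scaled. The F statistic and the fold change gave the standard errors and 95% confidence intervals. The pipeline was tested on simulated data. Alternatives were upper-quartile and DESeq2 size-factor scaling, TMM without the 10 most counted genes, DESeq2 1.42.0, limma-trend (limma 3.58.1), other filters, no fold limit, 2-group models, a replicate block and leaving out each library. Positions are those of mm9.

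Named are all 10 members, *Insr*, *Igfbp6*, *Igfbp7* and *H19*, each pathway gene called in a comparison (for a list without a call, the 2 largest and 2 smallest fold changes in PCa against WT), and the 3 genes most correlated with *Igf1r*. Some genes that the rule names are not reported here. *Airn*, *Pbsn* and the member correlations were added after their values were seen. Members, pathway lists and marker lists were chosen with earlier results of these data known. The labels tie no replicate number to a shared animal, so the samples were not treated as paired. The residuals of same-numbered libraries of different groups had a mean correlation of 0.0827 (lowest -0.0389), against -0.0422 for other numbers. Residuals were centred within each group, which constrains these correlations, so they cannot decide whether samples were paired. The number of counts limits the precision of low genes.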

Additional observations from a re-analysis of the deposited data

How the results depend on the processing

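Of the 10 members, the count called in PCa against WT was 1 and became 0 with upper-quartile scaling, without a filter, with filterByExpr, in the 2-group model and with the replicate block, 3 with DESeq2 and 2 with limma-trend, and 0 to 3 when 1 library was left out (3 without PCa 1). In PCa against PIN it was 0, and 1 with DESeq2 or limma-trend and 0 to 3 leaving out 1 library. Over all genes, the 1198 called in PCa against WT became 2487 with DESeq2, 130 in the 2-group model, 413 with the replicate block and 347 to 2477 leaving out 1 library, and the 803 in PCa against PIN became 1984, 388, 151 and 78 to 2251. In PIN against WT, 39 genes were called by DESeq2 and 1 by limma-trend, and no member by either. Pathway genes called numbered 2 (2-group model), 7 (replicate block) and 5 to 17 (leaving out 1 library) in place of 11 in PCa against WT, and 15 (DESeq2) and 2 to 16 (leaving out 1 library) in place of 7 in PCa against PIN. The log2 ratio of the mean summed IGFBP level in PCa against PIN was -1.03, and it was -1.78 (without PCa 1) to -0.54 (without PCa 2) on leaving out 1 library. Against WT that of PCa was -0.24 and turned to 0.39 without WT 1 and 0.26 without PCa 2 (lowest -0.99, without PCa 1), and that of PIN was 0.79, from 0.37 (without WT 2) to 1.42 (without WT 1). Fits without 1 PCa library assume that the lone tumor varies like the other groups, and *H19* then no longer passed the filter. No label ties equal replicate numbers to a shared animal. Where a call was lost under the block, the log2 fold change was larger for some genes and smaller for others. Against WT, that of *Igf1r* was 1.17 in place of 1.14, and that of *Sesn1* was 1.28 in place of 1.35.

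Directions turned for small differences in PIN against WT. With upper-quartile scaling the log2 fold change was 0.011 for *Igf2r*, 0.040 for *Irs1*, 0.037 for *Insr* and 0.075 for *Nras*, and for *Nras* also 0.040 with limma-trend, 0.0015 in the 2-group model and 0.0037 with the replicate block. Leaving out 1 library in PIN against WT gave -0.070 to 1.03 for *Igf2*, -0.11 to 0.40 for *Igf1r*, -0.22 to 0.12 for *Igf2r*, -0.13 to 0.086 for *Irs1*, -0.18 to 0.58 for *Irs2*, -0.13 to 1.26 for *Igfbp2*, -0.12 to 0.075 for *Insr*, -0.26 to 0.0089 for *Adam9*, -0.16 to 0.56 for *Igf2bp2*, -0.021 to 0.43 for *Pik3ip1* and -0.19 to 0.32 for *Nras*. In the PCa comparisons *Igfbp4* turned with limma-trend (-0.22 against WT and -0.63 against PIN) and with the replicate block (-0.0023 and -0.56), and *Igfbp7* against PIN with limma-trend (-0.0013). Leaving out 1 library in PCa against WT gave -2.81 to 0.48 for *Igf1*, -0.42 to 0.67 for *Igf2r*, -0.64 to 0.93 for *Irs2*, -2.0 to 1.38 for *Igfbp4* and -0.15 to 1.30 for *Igfbp7*, and in PCa against PIN -0.37 to 0.72 for *Igf2r*, -0.67 to 0.89 for *Irs2*, -2.32 to 1.06 for *Igfbp4* and -0.70 to 0.69 for *Igfbp7*. These ranges follow from which library was left out, and beyond that the cause was not tested.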
